A study of Homo sapiens with 9 samples.

Results

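The effect of raising the concentration of DIG-MSK from 8 nM to 80 nM was examined in A2780 cells by setting the 3 arrays of cells given 80 nM against the 3 arrays of cells given 8 nM, 6 of the 9 arrays of the series. The arrays were chosen by dose alone, as their titles give it. The labels give A2780, a human cell line set up from an ovarian carcinoma, for every culture and 24 h as the time of harvest. The remaining 3 arrays carried RNA of untreated cells, which entered the fit and are given beside the results as a reference. The study described the replicates as independent cultures, and asked how DIG-MSK acts on transcription at a low and at a higher dose.

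DIG-MSK is an analogue of mithramycin A that differs from it in the sugars and in the side chain of the molecule. Mithramycins are antibiotics that lie in the minor groove where DNA is rich in C and G. Such sequences include the GC boxes of promoters, which are bound by Sp1 and by related factors of the Sp and KLF families, and mithramycins are known for displacing Sp1 from them. Sp1 sites are found at genes of growth control, metabolism, matrix and cell identity, so a change of dose can be read across many functions.

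Levels are log2 background-corrected spot intensities relative to the 75th percentile of each array, so that 0 is the brightness of that percentile, and a difference is the mean level at 80 nM minus the mean level at 8 nM. Genes were kept where 1 dose or both had a probe well above background on each of its 3 arrays, which left 21418 of the 35010 gene names with a probe on the array. A gene was called higher at 80 nM if it was at least 1.5-fold higher, and lower if it was 0.67-fold or less, in both cases where limma's unadjusted p lay under 0.05. The fold limits and the threshold are those of the study, which does not say whether its p was adjusted. Adjusted p-values are Benjamini-Hochberg values over all 21418 genes. The number of arrays, 3 per dose, limits the precision of every value.

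Slide 1 held the untreated and the 8 nM arrays, and slide 2, scanned separately, those at 80 nM. Dose and slide therefore cannot be told apart in any value below. Arrays of the same dose correlated between 0.9898 and 0.9957 across genes, arrays of different doses between 0.9417 and 0.9474, and replicate 2 at 8 nM was the array least like its own group. Markers of ovarian epithelium were mixed in these cells: of 12 on the array, 7 were measured, whereas CDH1 and WT1 stayed near background throughout. EPCAM was lower at 80 nM, with a difference of -1.83 (adjusted p = 0.00017). The keratins KRT7, KRT8, KRT18 and KRT19 differed by 0.26, 0.35, -0.17 and -0.72, none of them called. PAX8 and CLDN4, well above background on 2 of 3 arrays at 8 nM and on all 3 at 80 nM, differed by 0.19 and 1.13. Linear levels were summed over measured markers only. For the 6 measured of 8 leukocyte markers the sum lay between 0.263 and 0.297 of the 75th percentile at 8 nM and between 0.386 and 0.436 at 80 nM. Of 6 endothelial markers 1 was measured, CDH5, and its level alone lay between 0.0877 and 0.103 and between 0.114 and 0.148. Fibroblast markers, 7 of 9 measured, summed to between 13.8 and 14.9 at 8 nM and to between 12.8 and 13.1 at 80 nM. Their members moved apart, with COL1A1 (1.41) and COL3A1 (1.44) higher, DCN (-1.36) and PDGFRA (-6.75) lower and COL1A2 not well above background at 80 nM, while THY1, the brightest, differed by 0.19 and was not called. MS4A1, PECAM1, KDR and FAP were not well above background on any of the 6 arrays, and the part of such cells in the results was not tested.

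The doses differed across a large part of the transcriptome. At 80 nM, 4276 genes were higher (20% of the genes tested) and 3010 were lower (14.1%), and 4176 (19.5%) and 2958 (13.8%) of these had an adjusted p under 0.05. The lower genes thus made up 41.3% of the calls, but 76.4% after scaling to the spike-in probes, which gave 1776 higher and 5750 lower genes. That scaling moved the median difference of all genes from 0.12 to -0.24, so differences smaller than this shift have no settled direction. In bulk RNA, fewer cells that express a gene and less of its RNA per cell cannot be told apart.

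A difference beyond 1 on the log2 scale was found for 1780 genes that were higher and for 1668 that were lower at 80 nM. A difference beyond 2 was found for 282 and 685. Among the 19070 genes well above background on all 6 arrays, 1095 and 990 lay beyond 1 and 141 and 228 beyond 2. The 3 arrays at 80 nM lay above all 3 arrays at 8 nM for 8613 genes (40.2%) and below them for 5504 (25.7%). Of the genes that passed through 1 dose alone, 1412 were well above background at 80 nM and not on all arrays at 8 nM, and 936 the reverse. The filter itself favours a difference in such genes: of the 1412, 972 were called higher and 1 lower, and of the 936, 0 were called higher and 748 lower. The gene lists below therefore count members well above background on all 6 arrays, and members that passed through 1 dose are accounted for apart, with nothing read from their direction. Among the 12879 genes with a symbol measured on all 6 arrays, 1975 were higher (15.3%) and 1667 lower (12.9%), with a median difference of 0.08. This is the background for the lists.

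**Figure D1:**
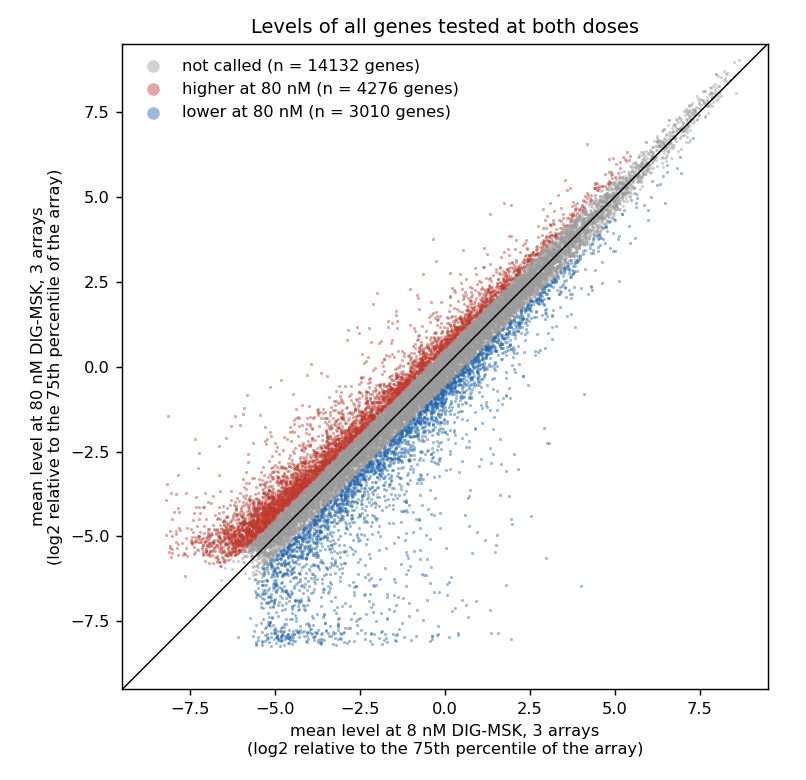
Mean level of each of the 21418 genes tested at 8 nM (x axis) and at 80 nM (y axis), both as log2 relative to the 75th percentile of the array, with genes higher at 80 nM in red, lower in blue and not called in grey; the line marks equal levels. The 685 genes that lay more than 2 below their level at 8 nM include many that were bright at 8 nM. Of the 685, 228 were well above background on all 6 arrays. The band at the bottom holds genes at background at 80 nM.

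The levels of untreated cells are given as a reference for the called genes. The untreated arrays shared slide 1 with those at 8 nM, so a likeness of the 2 groups cannot be told apart from the slide. Among the 1975 genes higher at 80 nM, the median level without drug was -1.30, at 8 nM it was also -1.30 and at 80 nM it was -0.33. Among the 1667 lower genes it was -0.30, -0.20 and -1.41. The genes were chosen with the same 8 nM arrays that enter these medians, so the values are a description.

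The 12 largest decreases among genes with a symbol on all 6 arrays covered several functions. Only genes with no overlap between the doses and an adjusted p under 0.05 entered this rank and that of the increases. SHISA3 (NM_001080505), an antagonist of WNT and FGF signalling, had levels of 2.42, 2.61 and 2.57 at 8 nM and -4.50, -4.35 and -4.34 at 80 nM. The difference was -6.93 (SE 0.10, adjusted p = 3.3e-09), or 122-fold. PDGFRA (NM_006206), a receptor for platelet-derived growth factor, had levels of 1.60, 1.37 and 1.54 at 8 nM and -4.96, -5.27 and -5.50 at 80 nM. It differed by -6.75 (SE 0.14, adjusted p = 9.2e-09), and its mean in untreated cells was 1.26, near that at 8 nM. The chemokine receptor CCR1 (NM_001295) showed levels of 2.02, 2.05 and 1.82 at 8 nM and -4.61, -4.56 and -4.68 at 80 nM, a decrease of 95.9-fold.

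CRABP1 (NM_004378), which binds retinoic acid in the cytosol, gave 1.89, 1.49 and 1.18 at 8 nM and -5.19, -4.66 and -5.05 at 80 nM. Its difference was -6.49 (SE 0.24, adjusted p = 2.1e-07), while a second probe differed by -2.36. DLK1 (NM_003836), an imprinted ligand related to those of Notch, gave 1.63, 2.07 and 2.10 at 8 nM and -4.44, -4.40 and -4.60 at 80 nM and differed by -6.41 (SE 0.16, adjusted p = 2.6e-08), with -1.97 at its other probe. In both genes the size of the difference depended on the probe.

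The others of the 12 largest decreases were TMEM30B (-5.70), a subunit of lipid flippases, TRIM49 (-5.42), the carbonic anhydrase CA2 (-5.37), the axonal motor KIF1A (-5.30), the transcriptional cofactor LMO1 (-5.26), GLDC of glycine cleavage (-5.16) and the protein kinase C isoform PRKCH (-4.96). For TRIM49, the arrays at 8 nM themselves lay above untreated cells. Its levels were 1.15, 0.36 and 0.64 at 8 nM and -4.83, -4.70 and -4.59 at 80 nM, with a mean of -1.11 without drug. KIF1A had the opposite order, with a mean of 3.99 without drug, of 3.06 at 8 nM and of -2.24 at 80 nM.

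**Figure D2:**
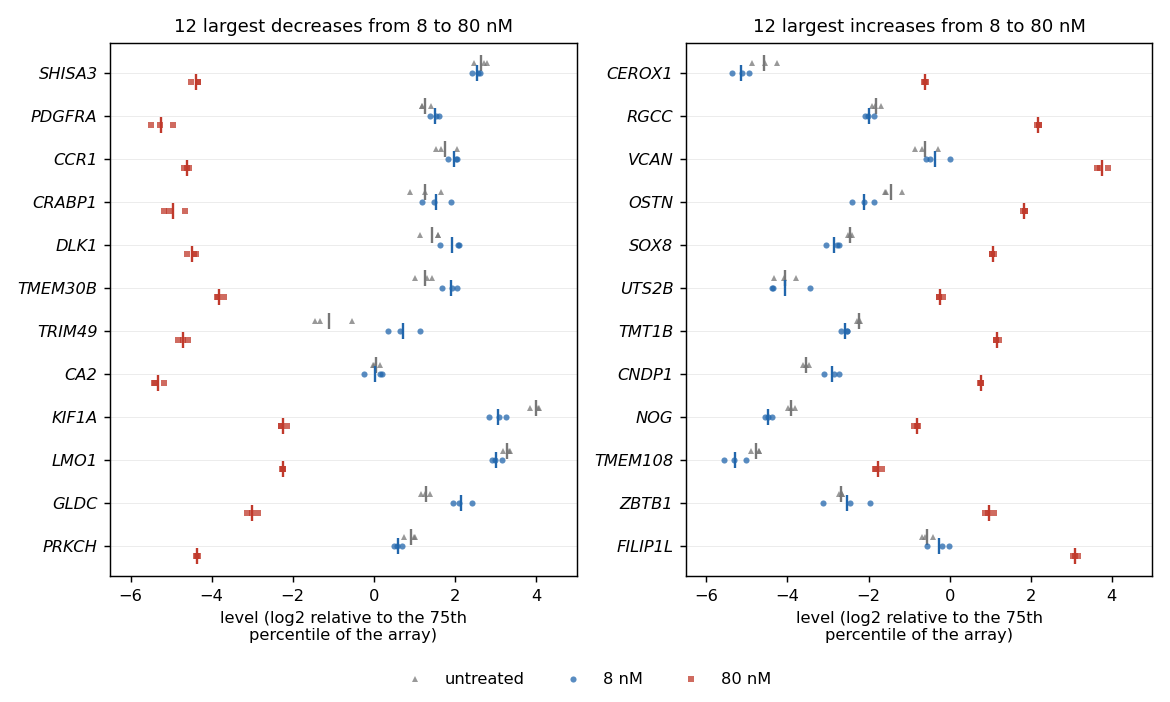
Levels of the 12 genes with the largest decrease (left) and the 12 with the largest increase (right) among genes with a symbol on all 6 arrays; each triangle, circle or square is 1 array and each vertical bar the mean of 3 arrays, on a log2 scale relative to the 75th percentile of the array. No overlap between the 3 arrays at 80 nM and the 3 at 8 nM was a condition of entry for all 24 genes. For most of them the untreated arrays lie near those at 8 nM, with which they shared slide 1.

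Other genes were measured at 8 nM and not well above background on any array at 80 nM. This was the case for 336 genes with a symbol, and 329 of them had a bound of at least 2-fold. The bound compares the mean level at 8 nM with an average, over the 80 nM arrays, of the higher of the gene's own signal and the dimmest signal called well above background. ISL1 (NM_002202), a LIM homeodomain factor of motor neuron and heart precursors, had levels of 1.72, 1.30 and 1.68 at 8 nM and -7.96, -7.92 and -7.61 at 80 nM, so it was at least 355-fold lower at 80 nM. Its untreated mean of 1.57 was close to that at 8 nM. Whether the arrays of both slides carried RNA of the same cells was not tested.

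BEND4, which has a DNA-binding BEN domain, was at least 256-fold lower at 80 nM, and its other probe differed by -4.91. MBD3L2, related to the methyl-CpG binding proteins, was at least 180-fold lower, and like TRIM49 it was higher at 8 nM (mean 0.69) than without drug (-1.16). PAX2, a kidney and genital tract regulator outside the naming rule and chosen after its values were seen, had levels of 3.96, 4.21 and 3.88 at 8 nM and -6.71, -5.80 and -6.85 at 80 nM. It was well above background on 1 of the 3 arrays at 80 nM, so neither a difference nor a bound is given.

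The 12 largest increases were likewise of mixed function. CEROX1 (NR_036442), a noncoding RNA linked to mitochondrial complex I, had levels of -5.11, -4.95 and -5.38 at 8 nM and -0.64, -0.60 and -0.59 at 80 nM. This was the largest increase among genes measured on all 6 arrays, 4.54 (SE 0.16, adjusted p = 1.8e-07). RGCC (NM_014059), a regulator of the cell cycle that binds CDK1, gave -2.02, -2.10 and -1.87 at 8 nM and 2.19, 2.19 and 2.16 at 80 nM, or 18.1-fold. VCAN (NM_004385), which encodes the matrix proteoglycan versican, gave 0.00, -0.58 and -0.49 at 8 nM and 3.90, 3.64 and 3.71 at 80 nM, and its difference was 4.11 (SE 0.19, adjusted p = 6.9e-07).

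OSTN, a secreted peptide of muscle and bone, was 15.6-fold higher, and UTS2B, a urotensin-related peptide, 14.2-fold. SOX8, a transcription factor of the neural crest and testis, had levels of -2.74, -2.78 and -3.06 at 8 nM and 1.04, 1.05 and 1.10 at 80 nM and differed by 3.92 (SE 0.09, adjusted p = 1.9e-08). NOG, the secreted antagonist of bone morphogenetic proteins, had levels of -4.49, -4.39 and -4.55 at 8 nM and -0.78, -0.87 and -0.80 at 80 nM, a difference of 3.66 (SE 0.08, adjusted p = 9.4e-09). The remaining genes of this rank were TMT1B (3.75), the dipeptidase CNDP1 (3.66), TMEM108 (3.52), ZBTB1 (3.50) and FILIP1L (3.36). ZBTB1 is the least certain of them, since its other probe differed by 0.69.

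The reverse of the lost genes was also found: 173 genes with a symbol were not well above background on any array at 8 nM, and 136 of them had a bound of at least 2-fold. KCND2, a potassium channel subunit, had levels of -6.22, -6.35 and -5.95 at 8 nM and -1.50, -1.43 and -1.41 at 80 nM and was at least 26.5-fold higher at 80 nM. NDST4, a heparan sulphate modifying enzyme, was at least 23.9-fold higher. MT1F, a metallothionein, was at least 23.2-fold higher at 80 nM with levels of -5.95, -6.51 and -6.40 at 8 nM and -1.85, -1.70 and -1.71 at 80 nM, and at -4.60 its untreated mean was between them. IRAG2 was at least 20.4-fold higher.

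Because the drug binds C/G-rich DNA, the proximal promoters of ranked genes are shown, from RefSeq on GRCh38.p14, over 250 bases before and 50 bases after the start. Capitals mark GC boxes, searched as GGGCGG and its complement CCGCCC on both strands. The first 2 sequences belong to genes that were lower and the last 2 to genes that were higher at 80 nM, and each pair was chosen to hold 1 promoter with GC boxes and 1 without. They are GLDC (chr9:6645680-6645979, - strand, 69.0% G and C), PDGFRA (chr4:54229043-54229342, + strand, 47.0%), RGCC (chr13:41457300-41457599, + strand, 76.7%) and OSTN (chr3:191198991-191199290, + strand, 42.0%).
GLDC: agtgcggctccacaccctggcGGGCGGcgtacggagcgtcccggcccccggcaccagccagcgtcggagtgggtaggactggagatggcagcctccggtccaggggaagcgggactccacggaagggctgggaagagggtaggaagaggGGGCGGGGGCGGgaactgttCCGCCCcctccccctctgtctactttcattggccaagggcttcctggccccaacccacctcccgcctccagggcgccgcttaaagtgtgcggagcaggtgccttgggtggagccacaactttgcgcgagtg
PDGFRA: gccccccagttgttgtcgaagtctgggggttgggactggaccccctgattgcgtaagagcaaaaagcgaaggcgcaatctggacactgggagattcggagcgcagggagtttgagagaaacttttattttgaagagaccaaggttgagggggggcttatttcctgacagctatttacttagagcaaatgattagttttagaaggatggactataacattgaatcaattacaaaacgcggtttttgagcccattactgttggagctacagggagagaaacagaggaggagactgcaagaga
RGCC: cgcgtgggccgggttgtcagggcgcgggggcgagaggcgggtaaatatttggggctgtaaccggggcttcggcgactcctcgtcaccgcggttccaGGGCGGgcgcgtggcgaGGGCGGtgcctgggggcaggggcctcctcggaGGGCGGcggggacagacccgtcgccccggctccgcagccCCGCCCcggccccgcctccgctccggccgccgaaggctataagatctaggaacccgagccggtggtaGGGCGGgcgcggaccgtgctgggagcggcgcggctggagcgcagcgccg
OSTN: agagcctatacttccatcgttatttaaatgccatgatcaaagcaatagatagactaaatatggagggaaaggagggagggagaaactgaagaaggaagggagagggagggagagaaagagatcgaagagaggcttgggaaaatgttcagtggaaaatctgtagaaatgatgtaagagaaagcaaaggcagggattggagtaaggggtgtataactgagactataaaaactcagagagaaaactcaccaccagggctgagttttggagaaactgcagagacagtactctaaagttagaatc

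GLDC, 35.8-fold lower at 80 nM, held 4 GC boxes, and RGCC, 18.1-fold higher, held 5. PDGFRA and OSTN held 0 boxes. These genes were picked to show both kinds of promoter in each direction, so nothing is read from their directions. Across protein-coding genes measured on all 6 arrays, 10025 of 12217 (82.1%) had a promoter in the table. Of all 27305 promoters in it, measured here or not, 44.6% held a box, a share that is no baseline for the measured genes. The median difference was 0.09 for the 3098 genes without a box, 0.06 for the 2395 genes with 1 box and 0.11 for the 921 genes with 5 or more. The share called higher was 15.4% without a box, between 12.9% and 16.4% with 1 to 4 boxes and 18.6% with 5 or more, with no steady rise. The share called lower lay between 11.3% and 13.9% in all 6 classes. A match is a string of letters in this window and no measure of binding.

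Of 37 lists of genes with a common function, 21 had a median difference above 0 and 16 below 0. Their order was set at both ends by a few lists, from the targets of SRF and YAP, the highest, to the interferon response, the lowest. With spike-in scaling, the medians of 19 of the 21 fell below 0, all except those of the SRF and YAP targets and of cholesterol and fatty acid synthesis. None of the 16 lists below 0 changed sign under any scaling. The shares below are to be read against 15.3% higher and 12.9% lower for all genes with a symbol on all 6 arrays.

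**Figure D3:**
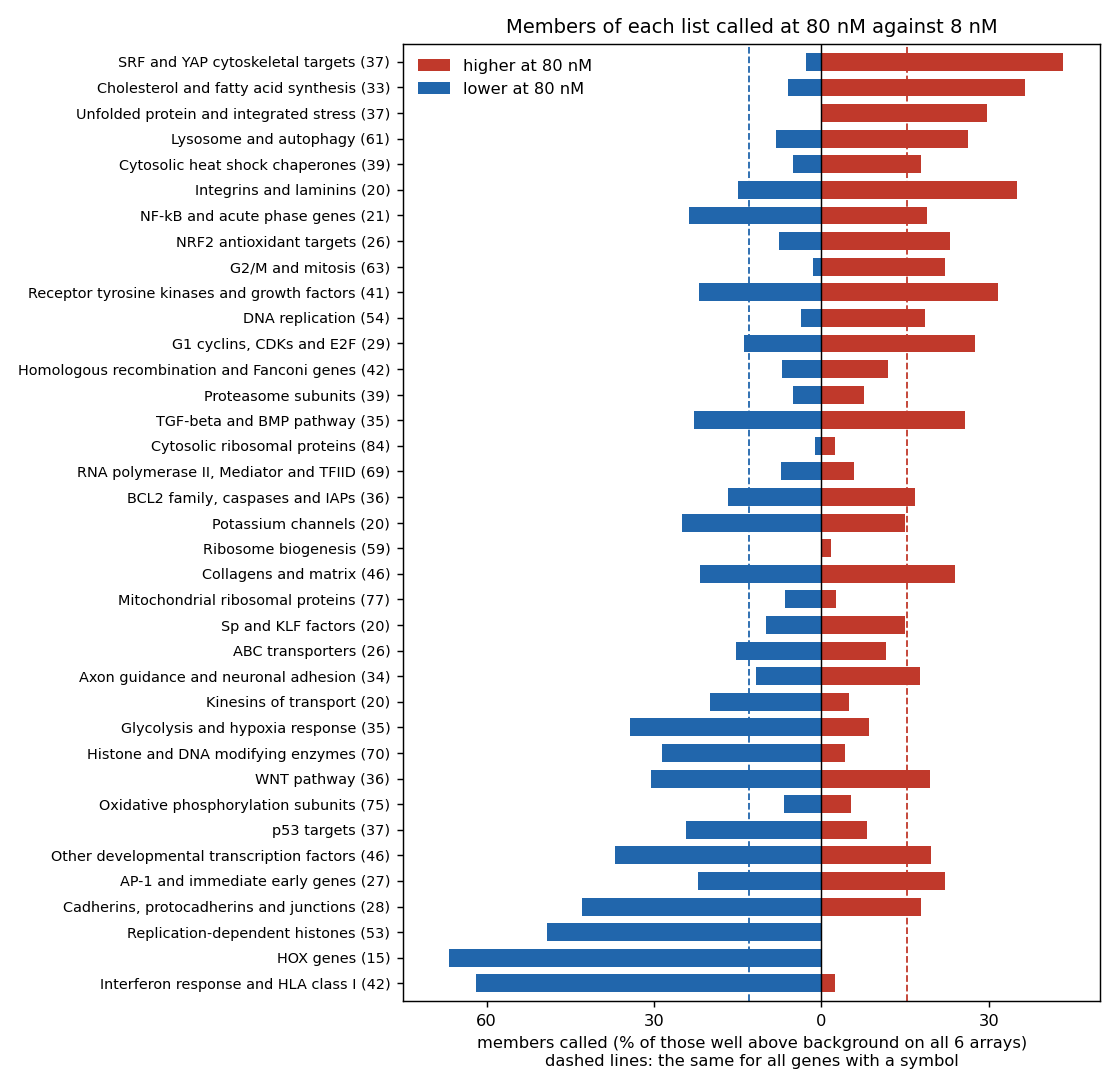
Share of the members of each of 37 lists called higher (red, to the right) or lower (blue, to the left) at 80 nM, in percent of the members well above background on all 6 arrays, whose number is in brackets; lists are ordered by their median difference. The dashed lines mark 15.3% higher and 12.9% lower for all genes with a symbol, and with spike-in scaling 19 of the 21 lists with a median above 0 had one below 0.

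Interferon response and antigen presentation genes had the lowest median of the 37 lists. Of 42 members on all 6 arrays, 26 were lower (61.9%) and 1 higher, with a median difference of -0.91. The median level of the list was 0.82, 0.36 and 0.47 on the arrays at 8 nM and -0.49, -0.41 and -0.36 on those at 80 nM. IFIH1 (NM_022168), the sensor of double-stranded RNA also known as MDA5, had levels of -0.87, -1.29 and -1.26 at 8 nM and -5.27, -5.81 and -5.29 at 80 nM, a difference of -4.32 (SE 0.21, adjusted p = 9.9e-07). TRIM22, an antiviral ubiquitin ligase that is also a p53 target, gave -2.83, -3.52 and -3.03 at 8 nM and -6.03, -5.86 and -6.02 at 80 nM, and its untreated mean of -4.97 lay between the doses.

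The decrease ran from the sensor to the transcription factors and the peptide loading machinery. STAT2 and IRF9, subunits of the factor that interferon activates, differed by -1.07 and -2.26. PSMB9, an immunoproteasome subunit, had levels of 2.93, 1.91 and 2.01 at 8 nM and -0.35, -0.29 and -0.21 at 80 nM, and replicate 1 at 8 nM was the highest. TAP1, which carries peptides into the endoplasmic reticulum, differed by -2.06 (SE 0.26, adjusted p = 0.00026). HLA-F gave 3.55, 2.93 and 3.01 at 8 nM and 0.83, 0.79 and 0.81 at 80 nM, with a smaller difference of -0.68 at its other probe. HLA-B differed by -1.91, HLA-C by -1.66 and HLA-E by -1.02, and these genes are similar enough in sequence that probes may share signal.

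Not all members of the interferon list followed. OAS3, which makes oligoadenylates, was higher by 1.08 (SE 0.20, adjusted p = 0.0019). IFIT1 differed by 0.28, IFIT2 by 0.36 and RIGI by -0.04, none of them called. Among 4 members that passed through 1 dose, 3 were lower: MX1, an antiviral GTPase, was at least 29.5-fold lower at 80 nM and the immunoproteasome subunit PSMB8 at least 14.4-fold, and XAF1 was not ranked. The constitutive proteasome list differed less, with 3 of 39 members higher and 2 lower. Those 2 were PSME1 (-0.78) and PSME2 (-0.75), the subunits of the activator that interferon induces.

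HOX genes, which set position along the body axis, were lower as a group. Of 15 members on all 6 arrays, 10 were lower (66.7%) and 0 higher, with a median difference of -0.69. HOXD9 (NM_014213) had levels of -1.24, -0.99 and -1.10 at 8 nM and -5.45, -5.54 and -5.66 at 80 nM, a difference of -4.44 (SE 0.09, adjusted p = 8e-09), with -3.34 at its other probe. In the HOXB cluster, HOXB6 gave 2.05, 1.92 and 1.78 at 8 nM and -0.88, -0.91 and -0.95 at 80 nM, and the differences of its neighbours HOXB5, HOXB4, HOXB3 and HOXB2 were -1.57, -1.06, -0.62 and -0.69. Another 7 HOX genes passed through 8 nM alone and all 7 were lower: HOXD8 at least 34.1-fold, HOXD3 at least 28.2-fold and HOXD13 at least 4.56-fold among them. The HOXA genes HOXA5, HOXA9 and HOXA10 differed by 0.18, -0.03 and 0.25 and were not called.

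Other developmental transcription factors moved both ways. Of 46 on all 6 arrays, 17 were lower (37.0%) and 9 higher (19.6%). MEIS3, a cofactor of HOX proteins, had levels of -0.38, -0.53 and -0.21 at 8 nM and -2.77, -2.67 and -2.66 at 80 nM. SOX9 gave -3.84, -3.76 and -3.57 at 8 nM and -1.36, -1.55 and -1.40 at 80 nM and differed by 2.29 (SE 0.22, adjusted p = 5.4e-05), and the nuclear receptor NR2F2 differed by 2.02 (SE 0.11, adjusted p = 1.5e-06). A further 14 members passed through 1 dose, of which 11 were lower and 1 was higher. SOX2, a factor of stem and neural precursor cells, was at least 16.1-fold lower with levels of -2.75, -2.89 and -3.03 at 8 nM and -7.95, -8.41 and -8.01 at 80 nM. LIN28A, an RNA-binding protein of pluripotent cells, was at least 61.2-fold lower, and HAND2 at least 31-fold. SOX5 was the higher one, with levels of -8.16, -7.94 and -8.14 at 8 nM and -3.93, -3.57 and -3.67 at 80 nM, or at least 8.65-fold.

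Replication-dependent histone genes, whose mRNAs end in a stem-loop and carry no poly(A) tail, were lower in many cases, least often those of H2B. Of 53 on all 6 arrays, 26 were lower (49.1%) and 0 higher, with a median difference of -0.52. H4C9 had levels of 1.23, 1.33 and 1.13 at 8 nM and -0.30, 0.18 and -0.06 at 80 nM, and H4C6 of 0.69, 0.54 and 0.62 at 8 nM and -0.73, -0.30 and -0.54 at 80 nM. H2BC7 gave -1.98, -3.13 and -2.03 at 8 nM and -4.12, -3.25 and -4.01 at 80 nM, where replicate 2 at both doses lay close together and the difference was -1.41 (SE 0.34, adjusted p = 0.0068). By class, 10 of 11 H4 genes, 8 of 12 H2A genes, 5 of 10 H3 genes and 2 of 16 H2B genes were lower. Of the 16 H2B genes, 11 had a difference above 0 and 0 were called higher, and the class median of 0.30 was smaller than the shift of spike-in scaling. Histone genes are near copies of each other, and probes may not separate them.

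A list of 38 other RNAs without a poly(A) tail, structural RNAs, was chosen after their values were seen. Of the 33 on all 6 arrays, 25 were lower at 80 nM (75.8%) and 0 higher, with a median difference of -1.02. Another 3 passed through 1 dose and were lower. Since the choice may favour such counts, they are a description and no support for the histone result. The probe of 18S rRNA (RNA18SN5) had levels of 4.06, 4.57 and 3.68 at 8 nM and -0.80, -0.42 and -1.18 at 80 nM, and that of 5.8S rRNA (RNA5-8SN5) 2.30, 4.49 and 1.97 at 8 nM and -1.84, -1.29 and -2.31 at 80 nM. The 7SK RNA (RN7SK), which holds back the elongation factor P-TEFb, gave 4.82, 4.32 and 4.73 at 8 nM and 2.25, 3.03 and 2.10 at 80 nM, and 7SL (RN7SL1) of the signal recognition particle differed by -0.94. In contrast, 28S rRNA (RNA28SN5) gave 8.26, 8.31 and 8.23 at 8 nM and 8.57, 8.63 and 8.63 at 80 nM and was not called. The part of whatever moved these RNAs in the histone result was not tested.

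**Figure D4:**
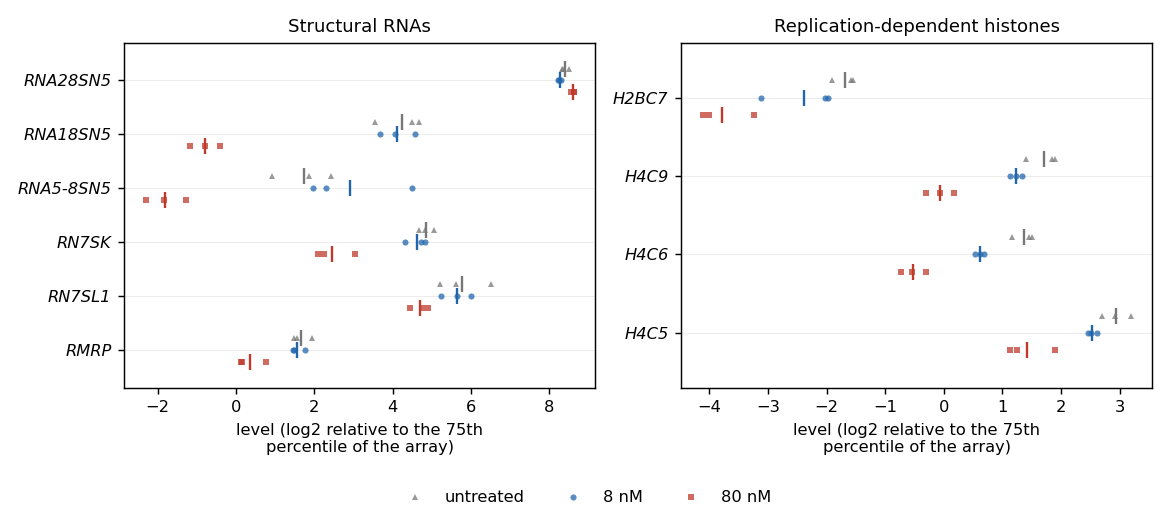
Levels of 6 structural RNAs (left) and of the 4 replication-dependent histone genes with the largest differences (right), on a log2 scale relative to the 75th percentile of the array; each symbol is 1 array and each vertical bar the mean of 3 arrays. The 18S and 5.8S rRNAs, RN7SK, RN7SL1 and RMRP and the histones are lower at 80 nM, whereas 28S rRNA is not.

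Enzymes that modify histones and DNA were more often lower than the background: 20 of 70 (28.6%) against 3 higher. KDM6A, an H3K27 demethylase, had levels of -0.18, 0.02 and 0.07 at 8 nM and -1.44, -1.59 and -1.56 at 80 nM and differed by -1.50 (SE 0.11, adjusted p = 9.2e-06), and its paralogue KDM6B differed by -1.27 (SE 0.16, adjusted p = 0.0002). The H3K36 methyltransferase NSD1 gave 0.50, 0.57 and 0.58 at 8 nM and -0.81, -0.63 and -0.82 at 80 nM. DNMT3A differed by -1.30 at its main probe, with 2 further probes between -2.20 and 0.03.

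Genes of glycolysis and the hypoxia response were lower in 12 of 35 (34.3%) and higher in 3. PDK1, which turns pyruvate away from mitochondria, had levels of 0.67, 0.73 and 0.81 at 8 nM and -1.09, -1.19 and -1.11 at 80 nM. ANKRD37, a target of hypoxia-inducible factor, gave -0.97, -1.10 and -1.28 at 8 nM and -3.02, -3.27 and -3.24 at 80 nM and differed by -2.06 (SE 0.13, adjusted p = 3.7e-06). VEGFA, the angiogenic growth factor, differed by -1.04, and HIF1A, the oxygen-regulated subunit itself, by -0.72. Its paralogue EPAS1, also called HIF-2 alpha, went the other way with -5.03, -4.66 and -4.65 at 8 nM and -2.52, -2.39 and -2.46 at 80 nM, a difference of 2.33 (SE 0.11, adjusted p = 8.2e-07). Of 2 members that passed through 8 nM alone, the neuronal enolase ENO2 was at least 103-fold lower, and EGLN3 was lower with no bound. MXI1, a member of the MAD family that opposes MYC, differed by -1.69, with -0.26 and -0.18 at its other probes.

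**Figure D5:**
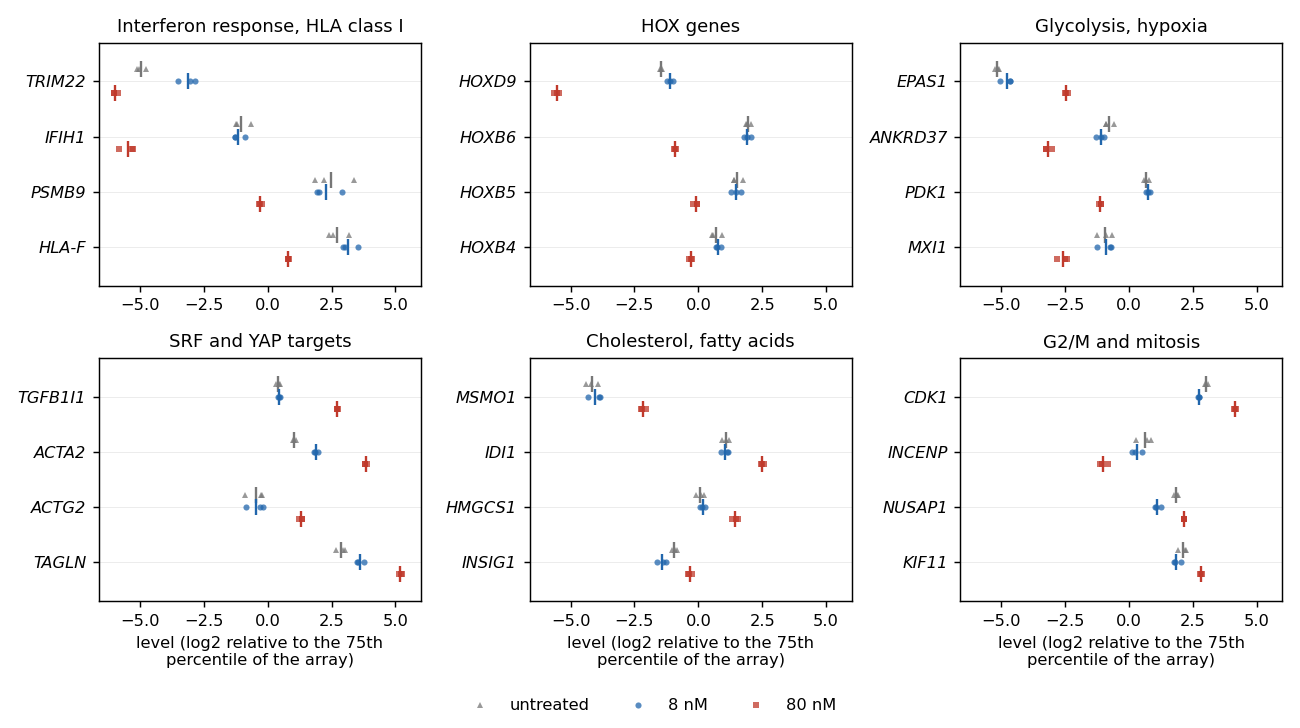
Levels of called members of 6 lists, up to 4 each, on a log2 scale relative to the 75th percentile of the array; each triangle, circle or square is 1 array and each vertical bar the mean of 3 arrays. Members of the interferon and HOX panels and all but EPAS1 of the glycolysis and hypoxia panel are lower at 80 nM, and those of the lower row are higher except INCENP, on the main scale; with spike-in scaling the median of the G2/M list was below 0.

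The p53 targets were more often lower than higher at 80 nM. Of 37 on all 6 arrays, 9 were lower (24.3%) and 3 higher. TP53I3, an oxidoreductase linked to apoptosis, had levels of 5.90, 6.08 and 5.95 at 8 nM and 4.56, 4.62 and 4.68 at 80 nM, all above its untreated mean of 4.06. BAX, which permeabilises mitochondria, gave 5.09, 5.32 and 4.94 at 8 nM and 3.71, 3.85 and 3.96 at 80 nM and an untreated mean of 4.21. The other probe of BAX differed by -0.47, a smaller decrease. MDM2, the ubiquitin ligase of p53, differed by -1.15, and PMAIP1 and BBC3, which encode the BH3-only proteins NOXA and PUMA, by -1.21 and -0.98. Against untreated cells, the list had a median of 0.90 for 8 nM and of 0.71 for 80 nM, 2 values that share the untreated arrays.

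Among the BCL2 family, caspases and inhibitors of apoptosis, 6 of 36 were higher (16.7%) and 6 lower (16.7%). With spike-in scaling 4 were higher and 14 lower. BIRC2, an inhibitor of apoptosis protein, had levels of 0.94, 0.75 and 1.09 at 8 nM and 2.76, 2.66 and 2.74 at 80 nM and differed by 1.79 (SE 0.10, adjusted p = 2e-06), and its relative BIRC3 differed by 1.25 (SE 0.09, adjusted p = 9.3e-06). BCL2L11, which encodes the BH3-only protein BIM, differed by 1.41 at its main probe, but 2 other probes differed by -1.41 and -0.11, so its direction is not settled. BAX, PMAIP1 and BBC3 stood among the 6 lower members. Of 4 members that passed through 1 dose, 3 were lower and 1 higher.

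Genes of cell-to-cell adhesion were lower more often than higher. Of 28 cadherins, protocadherins and junction genes, 12 were lower (42.9%) and 5 higher (17.9%). F11R, a tight junction adhesion molecule, had levels of 0.80, 1.43 and 1.08 at 8 nM and -1.64, -1.72 and -1.58 at 80 nM. CDH2, neural cadherin, gave 0.07, 0.31 and -0.07 at 8 nM and -1.88, -2.26 and -2.27 at 80 nM, and both its probes were lower. OCLN, occludin of tight junctions, differed by -1.71 (SE 0.09, adjusted p = 1.7e-06), and CDH10 by -2.23 (SE 0.32, adjusted p = 0.00048). Of 6 members that passed through 1 dose, 4 were lower and 1 higher.

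Collagens and other matrix genes were split, with 11 of 46 higher (23.9%) and 10 lower (21.7%), or 8 and 16 with spike-in scaling. FBN2, which forms microfibrils, gave -0.12, -0.25 and -0.10 at 8 nM and -4.75, -4.80 and -4.74 at 80 nM and was 24.4-fold lower. COL12A1, a fibril-associated collagen, was 6.9-fold higher with levels of -4.46, -4.59 and -4.68 at 8 nM and -1.75, -1.79 and -1.82 at 80 nM. The chains of collagen I parted: COL1A2 was at least 140-fold lower, with levels of 0.69, 0.10 and 0.09 at 8 nM and -6.96, -6.91 and -7.45 at 80 nM, while COL1A1 differed by 1.41 (SE 0.11, adjusted p = 1.4e-05). GPC3, a glypican, differed by -2.60 (SE 0.10, adjusted p = 3e-07) and by -5.98 at its other probe. Of 8 further members that passed through 1 dose, 7 were lower, COL6A3 of collagen VI by at least 92.4-fold.

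Of 20 integrins, the receptors for that matrix, and laminins, 7 were higher and 3 lower, with a median of 0.31 that fell below 0 with spike-in scaling. Among the 13 integrins 6 were higher and 1 lower, and among the 7 laminins 1 was higher and 2 lower. Another 3 members passed through 8 nM alone, and of these ITGA1 was at least 51.7-fold lower at 80 nM, ITGA8 at least 8.33-fold and LAMB1 at least 5.13-fold. ITGAV, the alpha V chain, had levels of 3.55, 3.58 and 3.51 at 8 nM and 5.52, 5.45 and 5.48 at 80 nM, and ITGA7, which binds laminin, -0.43, -0.26 and -0.53 at 8 nM and 1.88, 1.90 and 1.97 at 80 nM. ITGA10 differed by 2.28 (SE 0.16, adjusted p = 7.8e-06). LAMA1, a laminin chain, differed by -1.44 (SE 0.10, adjusted p = 9.2e-06).

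Contractile and cytoskeletal genes regulated by SRF and YAP made up the list with the highest median, 0.48, and with 0.12 it stayed above 0 with spike-in scaling. Of 37 on all 6 arrays, 16 were higher (43.2%) and 1, AMOTL2, was lower, which was 0 without replicate 2 at 8 nM or replicate 2 at 80 nM. TGFB1I1, a focal adhesion adaptor, had levels of 0.49, 0.46 and 0.42 at 8 nM and 2.70, 2.76 and 2.73 at 80 nM and differed by 2.27 (SE 0.07, adjusted p = 5.5e-08). ACTA2, smooth muscle actin, gave 1.99, 1.84 and 1.82 at 8 nM and 3.80, 3.82 and 3.90 at 80 nM against an untreated mean of 1.05. ACTG2 was 3.39-fold higher. The 3 targets that passed through 8 nM alone were lower at 80 nM, CCN2, a matricellular protein that YAP induces, by at least 13.9-fold, ANKRD1 by at least 3.62-fold and LMOD1 by at least 3.35-fold. CCN2 had levels of -3.04, -3.42 and -2.85 at 8 nM and -8.09, -8.16 and -7.75 at 80 nM against an untreated mean of -4.81.

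Genes of cholesterol and fatty acid synthesis were higher in 12 of 33 (36.4%) and lower in 2 (1 without replicate 2 at 8 nM), with a median of 0.42, or 0.07 with spike-in scaling. MSMO1, a sterol demethylase, had levels of -3.90, -4.32 and -3.86 at 8 nM and -2.06, -2.26 and -2.22 at 80 nM. HMGCS1, which makes the precursor of mevalonate, gave 0.15, 0.27 and 0.07 at 8 nM and 1.53, 1.33 and 1.48 at 80 nM, and IDI1, an isomerase of the same pathway, differed by 1.44 (SE 0.10, adjusted p = 7.7e-06). INSIG1, a sensor that retains the sterol regulator SREBP, was 2.14-fold higher. The genes of the SREBP factors moved apart, SREBF2 by 0.80 and SREBF1 by -0.65. The 1 member that passed through 80 nM alone was SC5D, at least 3.08-fold higher.

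Stress and degradation pathways also held more higher than lower genes on the main scale, and each of the following medians fell below 0 with spike-in scaling. Of 37 genes of the unfolded protein and integrated stress responses, 11 were higher (29.7%) and 0 lower (1 without replicate 2 at 8 nM), with a median of 0.35. With spike-in scaling 2 were higher and 3 lower. ATF5, a factor of the integrated stress response, had levels of 0.03, 0.27 and -0.03 at 8 nM and 1.44, 1.40 and 1.48 at 80 nM, and NUPR1, a stress-induced chromatin protein, 4.89, 5.11 and 4.84 at 8 nM and 6.06, 6.14 and 6.21 at 80 nM. The endoplasmic reticulum chaperone gene HSPA5 differed by 0.71. Of 61 lysosome and autophagy genes, 16 were higher (26.2%) and 5 lower (8.2%), or 8 and 13 with spike-in scaling. LIPA, the acid lipase, gave 2.24, 1.96 and 2.00 at 8 nM and 3.39, 3.49 and 3.50 at 80 nM, whereas CTSF, a cathepsin, gave -1.45, -1.19 and -1.46 at 8 nM and -3.13, -3.04 and -3.24 at 80 nM and was 3.4-fold lower.

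Cytosolic heat shock chaperones were higher in 7 of 39 (17.9%), near the background, and lower in 2 (5.13%). The higher count was 4 with quantile normalisation or the authors' values, and spike-in scaling gave 2 higher and 3 lower. HSPB1, a small heat shock protein, had levels of 4.51, 4.43 and 4.33 at 8 nM and 5.32, 5.42 and 5.45 at 80 nM, and DNAJB5 moved in the other direction with 0.81, 1.16 and 0.96 at 8 nM and -0.38, -0.29 and -0.26 at 80 nM. HSPA1A passed through 8 nM alone and was at least 5.87-fold lower, and HSPA2 passed through 80 nM alone and was at least 4.29-fold higher. NRF2 antioxidant targets were higher in 6 of 26 (23.1%) and lower in 2 (7.69%), or 0 and 3 with spike-in scaling. HMOX1, heme oxygenase, was among the lower members, with levels of 2.82, 3.58 and 3.15 at 8 nM and 1.70, 1.70 and 1.60 at 80 nM and a difference of -1.52 (SE 0.20, adjusted p = 0.00034). The lower count was 1 without replicate 2 at 8 nM and also without replicate 1 at 80 nM, and of 4 members that passed through 1 dose, 3 were lower and 1 higher.

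Cell cycle lists held more higher than lower genes at 80 nM on the main scale. With spike-in scaling this no longer held, and their medians fell below 0. Among 63 G2/M and mitosis genes, 14 were higher (22.2%) and 1 lower (1.59%), with a median of 0.24, or -0.12 on the spike-in scale. Spike-in scaling gave 3 higher and 3 lower genes. CDK1, the mitotic kinase, had levels of 2.68, 2.75 and 2.75 at 8 nM and 4.16, 4.10 and 4.17 at 80 nM and a mean of 3.02 in untreated cells. NUSAP1, a spindle protein, gave 1.02, 1.24 and 1.07 at 8 nM and 2.14, 2.14 and 2.13 at 80 nM. INCENP, a subunit of the chromosomal passenger complex, was the only lower member, with 0.23, 0.52 and 0.13 at 8 nM and -1.16, -0.83 and -1.07 at 80 nM.

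Of 54 DNA replication genes, 10 were higher (18.5%) and 2 lower (3.7%), or 2 and 6 with spike-in scaling. RRM2, a subunit of ribonucleotide reductase, had levels of 0.82, 0.66 and 1.14 at 8 nM and 2.29, 2.22 and 2.28 at 80 nM and differed by 1.39 (SE 0.16, adjusted p = 0.00012). ORC1, of the origin recognition complex, differed by 0.95 (SE 0.08, adjusted p = 2.2e-05). Among 29 genes of G1 cyclins, their kinases and E2F, 8 were higher (27.6%) and 4 lower (13.8%), or 4 and 8 with spike-in scaling. CCND3, a D-type cyclin, gave 0.19, 0.05 and 0.12 at 8 nM and 1.60, 1.64 and 1.71 at 80 nM, and CDK2 -1.93, -2.27 and -1.98 at 8 nM and -0.54, -0.77 and -0.60 at 80 nM. The inhibitors moved apart, CDKN2C by 1.33 (SE 0.06, adjusted p = 5.2e-07) and CDKN2A by -1.59 (SE 0.09, adjusted p = 3e-06). CDK6 passed through 8 nM alone and was lower. In 42 homologous recombination and Fanconi genes, 5 were higher (11.9%) and 3 lower (7.14%), both under the background, or 1 and 8 with spike-in scaling. BARD1 was the highest with 1.22 (SE 0.09, adjusted p = 1.3e-05). FANCF was the lowest with -0.84 (SE 0.10, adjusted p = 0.00016), and its other probe differed by -0.32. Without replicate 2 at 8 nM the higher count was 3.

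Lists of the basic machinery of the cell had few calls on the main scale. Of 84 cytosolic ribosomal protein genes, 2 were higher and 1 lower, and of 59 ribosome biogenesis genes 1, WDR36, was higher and 0 lower. RPL22L1, a paralogue of RPL22, had levels of 4.64, 5.08 and 4.76 at 8 nM and 6.02, 6.18 and 6.14 at 80 nM and an untreated mean of 6.35. RPS27L, a paralogue of RPS27 that p53 induces, differed by -0.80 (SE 0.08, adjusted p = 4.6e-05). In 77 mitochondrial ribosomal protein genes 2 were higher and 5 lower, and in 75 genes of oxidative phosphorylation 4 were higher and 5 lower. Without replicate 2 at 8 nM, 1 gene of oxidative phosphorylation, 3 mitochondrial ribosomal protein genes and 1 of ribosome biogenesis were lower and 4 of ribosome biogenesis were higher, and without replicate 1 at 8 nM 8 genes of oxidative phosphorylation were lower. Ribosome biogenesis had 2 higher genes without replicate 3 at 8 nM or without replicate 1 at 80 nM. With spike-in scaling 42.7% of the genes of oxidative phosphorylation were called, 32 of them lower and 0 higher, against 35.1% of all genes tested, and 19 mitochondrial ribosomal protein genes were lower.

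For RNA polymerase II, Mediator and TFIID, 4 of 69 genes were higher and 5 lower, with 2 higher without replicate 2 at 8 nM and 18 lower with spike-in scaling. TAF3, a TFIID subunit that reads H3K4me3, had levels of 0.33, 0.83 and 0.15 at 8 nM and -1.25, -1.22 and -1.40 at 80 nM and differed by -1.73 (SE 0.16, adjusted p = 4.9e-05), and TAF2 differed by 0.99 (SE 0.17, adjusted p = 0.0014). Sp and KLF factors, which bind GC boxes, were higher in 3 of 20 and lower in 2. KLF16 gave 2.83, 2.67 and 2.62 at 8 nM and 3.53, 3.61 and 3.53 at 80 nM and was not called with spike-in scaling. KLF14 differed by -0.83 (SE 0.10, adjusted p = 0.00019), and SP6 differed by -0.87 (SE 0.29, adjusted p = 0.03) but was not called under 3 of the alternatives. SP5 passed through 8 nM alone and was at least 3.41-fold lower, and KLF15, which passed through 80 nM alone, was not called. Of 27 AP-1 and immediate early genes, 6 were higher (22.2%) and 6 lower (22.2%), or 2 and 14 with spike-in scaling. MYC had levels of 3.35, 3.38 and 3.44 at 8 nM and 2.30, 2.18 and 2.19 at 80 nM, and ARC, an activity-regulated gene, -1.82, -2.28 and -2.05 at 8 nM and -3.70, -3.58 and -3.61 at 80 nM. NR4A2, a nuclear receptor, differed by 1.45 (SE 0.23, adjusted p = 0.00092). EGR2 passed through 8 nM alone and was at least 6.58-fold lower, and EGR4, which also passed through 1 dose, was not called. ATF3 differed by -1.53 at its main probe, with 3 others between -0.94 and 0.03.

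Signalling pathways of development moved both ways. Of 41 receptor tyrosine kinases and growth factors, 13 were higher (31.7%) and 9 lower (22.0%). The counts were 9 and 9 with normexp or the authors' values, and 7 and 13 with spike-in scaling. MDK, the growth factor midkine, had levels of 2.33, 1.82 and 1.96 at 8 nM and -2.59, -2.51 and -2.66 at 80 nM and was 24.6-fold lower, and FGF18 gave 0.92, 1.08 and 1.05 at 8 nM and -2.99, -2.92 and -2.87 at 80 nM. Against these stood the receptors FGFR3 (2.11) and TYRO3 (1.91) and the ligand KITLG, stem cell factor, which was 4.09-fold higher. Of 5 members that passed through 1 dose, 4 were lower and 0 higher. Of 35 TGF-beta and BMP genes, 9 were higher (25.7%) and 8 lower (22.9%), or 6 and 10 with spike-in scaling. The ligand BMP7 gave 1.28, 1.88 and 1.20 at 8 nM and -1.50, -1.50 and -1.48 at 80 nM, with further probes at -2.57 and -2.45, while its antagonist NOG was higher. The receptor BMPR2 was higher by 1.56 (SE 0.18, adjusted p = 0.00014) and the effector SMAD9 by 2.66 (SE 0.20, adjusted p = 1.4e-05). Of 5 members that passed through 1 dose, 2 were higher and 2 lower.

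WNT pathway genes were lower in 11 of 36 (30.6%) and higher in 7 (19.4%). WNT11, a ligand, had levels of -3.74, -3.44 and -3.61 at 8 nM and -5.74, -5.75 and -5.85 at 80 nM. NKD1 and NKD2, feedback inhibitors of the pathway, moved in opposite directions, by 1.46 (SE 0.12, adjusted p = 2.5e-05) and -1.74 (SE 0.08, adjusted p = 5.4e-07). FZD1, a receptor, differed by 1.40 (SE 0.08, adjusted p = 3e-06), and AXIN2, a target and inhibitor of the pathway, by -0.99. All 7 further members that passed through 1 dose were lower, and RSPO2, a secreted enhancer of WNT signalling, was at least 104-fold lower with levels of -0.41, -0.06 and -0.14 at 8 nM and -7.96, -8.01 and -7.60 at 80 nM.

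Of 34 axon guidance and neuronal adhesion genes on all 6 arrays, 6 were higher (17.6%) and 4 lower (11.8%), near the background of 15.3% and 12.9%. With spike-in scaling 5 were higher and 12 lower. Another 15 passed through 1 dose, of which 11 were lower and 4 higher. EPHA3, an ephrin receptor, gave -1.58, -1.87 and -1.55 at 8 nM and 1.36, 1.35 and 1.36 at 80 nM and was 8.13-fold higher. SEMA6A and SEMA3A differed by 2.03 (SE 0.09, adjusted p = 5.2e-07) and 1.99 (SE 0.23, adjusted p = 0.00016). Potassium channels were lower in 5 of 20 and higher in 3, with the inward rectifiers KCNJ12 and KCNJ2 at -1.48 (SE 0.10, adjusted p = 8.4e-06) and -1.46 (SE 0.09, adjusted p = 3.5e-06). KCNH2 differed by -1.29 at its main probe and -0.06 at the other. Another 15 channels passed through 1 dose, of which 7 were lower and 6 higher, KCND2 above among them. Transport kinesins were lower in 4 of 20 and higher in 1, or in 3 without replicate 2 at 8 nM, with KIF26A at -1.25 (SE 0.13, adjusted p = 7.6e-05). Of 26 ABC transporters 4 were lower (15.4%), with ABCA3 at -1.64 (SE 0.09, adjusted p = 2.6e-06), and 3 higher (11.5%). Of the members that passed through 1 dose, 5 kinesins held 2 lower and 1 higher and 4 ABC transporters 2 lower and 2 higher.

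Inflammatory and acute phase genes were higher in 4 of 21 and lower in 5. PTX3, a secreted pattern recognition protein, had levels of -4.49, -4.35 and -4.28 at 8 nM and -1.45, -1.53 and -1.55 at 80 nM and was 7.29-fold higher, and the cytokine IL11 was 2.67-fold higher. SAA2, a serum amyloid, gave -2.13, -1.39 and -1.46 at 8 nM and -3.56, -3.36 and -3.43 at 80 nM, both doses above its untreated mean of -5.05. CCR1 was the lowest of the list. CXCL10 and ICAM1 passed through 8 nM alone and were at least 12.2-fold and 7.52-fold lower, and CXCL1 passed through 1 dose without being called.

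Long intergenic RNA features (lincRNA) were more often higher than lower at 80 nM on the main scale. Of 2990 on all 6 arrays, 785 were higher (26.3%) and 232 lower (7.76%), with a median difference of 0.28 against 0.08 for genes with a symbol, and with spike-in scaling both medians lay below 0 (-0.07 and -0.28). Since many of these features are dim, they were compared within ranges of mean level. Below -4, the median difference was 0.35 for 773 lincRNA features and 0.20 for 903 genes with a symbol, and between -4 and -2 it was 0.36 and 0.08. Between -2 and 0 the values were 0.26 and 0.04, and above 0 they were 0.05 and 0.08. The lincRNA features thus lay above the genes with a symbol in the 3 dimmer ranges and not in the brightest. Below -4, genes with a symbol also had more higher (23.6%) than lower (12.5%) calls, against 32.2% and 6.34% of lincRNA features. The mean net signal of negative control probes was 36.6, 31.1 and 38.6 on the arrays at 8 nM. On those at 80 nM it was 22.1, 22.2 and 22.7, and its part in the dim ranges was not tested.

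Probes of the same gene were mostly of the same sign. Of 433 genes with a symbol that were called higher and had another probe tested, 376 (86.8%) had all other probes above 0, and of 495 called lower, 386 (78.0%) had all below 0. The other probes of the lower genes had a median of -0.55 against -0.97 at the probes used.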

How the data were processed

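A2780 RNA was hybridised to 9 one-colour Agilent arrays, with 3 arrays for each of 3 groups. The authors extracted spot intensity with Agilent Feature Extraction 10.7.3.1, per the file headers, and deposited the background-subtracted processed intensity for every spot. A table of log2 values, normalised by the authors, was also deposited and served as an alternative. Intensities were turned to log2, the 75th percentile of each array over gene probes was subtracted, flagged and control spots were left out, spots of 1 probe were averaged, and a gene was represented by its brightest probe. A flagged spot left 14 genes with 1 array missing in the fit. Gene names were those of the first array, since accessions of some probes differed between the files of the slides.

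The 3 groups were fitted together with lmFit and eBayes (limma 3.58.1, R 4.3.3, Python 3.11.15) and 80 nM was set against 8 nM. On simulated data of 21418 genes, 94 of 100 genes changed by 1 on the log2 scale and 100 of 100 changed by 2 were recovered. With an adjusted p under 0.05 these were 80 and 97. Of the unchanged genes 184 were called, or 5 with an adjusted p under 0.05. The simulation held no slide effect, so it cannot show how the slides bear on the contrast. The 6 arrays of the contrast have replicate numbers, but same-numbered arrays at 8 nM and 80 nM did not deviate together (correlations 0.0136, -0.119 and -0.0282).

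The genes named were the 12 largest increases and decreases with adjusted p under 0.05 and no overlap, up to 4 called members per list, and the 5 largest bounds in each direction. Some genes that the rule names are not reported here. Genes outside this rule were picked with their values in view. The groups, the gene lists and the members were chosen with earlier results of these data known. The alternatives were normexp background correction, other scalings, the filter on dim probes, the choice of probe, the fit and the arrays left out. Promoters came from RefSeq (GRCh38.p14).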

Additional observations from a re-analysis of the deposited data

How the results depend on the processing

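At the thresholds used, 4276 genes were higher and 3010 lower. Normexp background correction gave 2306 and 2000, the authors' deposited log2 values 2656 and 2586, and spike-in scaling 1776 and 5750. Quantile normalisation gave 4134 and 3092, scaling to the array median 4433 and 2962, no filter on dim probes 5435 and 3604 over 35010 genes, and a filter on all 6 arrays 3314 and 2269. The mean of the probes gave 4297 and 2957, each probe counted on its own 5104 and 3704, and the fit on the 6 arrays alone 4275 and 2971. Leaving out 1 array at a time gave between 3925 and 4530 higher and between 2915 and 3155 lower genes. A replicate block gave 4264 and 3005 genes, and no named gene changed its call, but the numbers do not pair the arrays. Of 168 named genes, 141 kept their direction and call under every alternative run for them. A call was lost 34 times, 19 of them with spike-in scaling and 3 without replicate 2 at 8 nM. The sign of BCL2L11 turned to -0.037 with the mean of its probes, which joins probes of opposite sign. The causes of the other changes were not tested. No slide block could be fitted, since each of the 2 doses lay on a slide of its own.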
